A study of Mus musculus with 18 samples.

Results

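The C1q/TNF-related proteins are a family of secreted proteins, and 7 of their genes were followed here in mouse marrow-derived mesenchymal stem cells (MSC): C1qtnf1, C1qtnf2, C1qtnf4, C1qtnf5, C1qtnf6, C1qtnf7 and C1qtnf12. They were found by gene symbol among 54347 genes and chosen on measured values. C1qtnf12 was known beforehand for its loss of signal after Arp4 knockdown, so its values in comparisons with the knockdown or siControl groups are a description without a test, and which values led to the choice of the other 6 was not recorded. Their adjusted p-values are therefore no independent evidence. The table held 9 C1qtnf genes, and the remaining pair, C1qtnf3 and C1qtnf9, had normalized counts of at most 4.01 and 0.84 in any library.

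The cells were 1 primary MSC line, pooled from the marrow of 6 male C57BL/6J mice, so replicates are separate preparations of that line and not separate lines. RNA-seq was run on 6 groups of 3 libraries. In the first experiment, cells were untreated (control) or treated for 24 h with CK666, which inhibits branched actin nucleation by Arp2/3, or with cytochalasin D (CytoD), which blocks the ends of actin filaments. All cells of the second experiment were transfected. They received a control siRNA (siControl), the Arp4 siRNA (siArp4), or the Arp4 siRNA and CK666 (siArp4+CK666). No group that received siControl and CK666 together was analysed here, and only the second experiment was transfected. Arp4, encoded by Actl6a, is an actin-related protein of nuclear chromatin-remodelling complexes.

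C1q/TNF-related proteins pair a collagen-like stalk with a globular C1q domain and assemble into trimers. They leave the cell through the endoplasmic reticulum, where collagen-type enzymes hydroxylate them. They are relatives of adiponectin, the hormone of fat cells, and several of them act on glucose and lipid metabolism, inflammation or complement. Marrow MSC can become fat cells or bone cells, so members of this family are among the proteins by which such cells could signal to their neighbours.

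The genes share the C1q domain, and the longest unbroken run of collagen-like triplets in their coding sequence differed between them. That run is given below for the 4 genes with substantial signal, 5′ to 3′ on the coding strand. It comes from the annotated main transcript (GENCODE vM21, GRCm38) as 1 uninterrupted reading frame. The run was found by codons alone and need not be the whole stalk. Capitals mark the GG that opens each glycine codon at the head of a collagen triplet.
C1qtnf12: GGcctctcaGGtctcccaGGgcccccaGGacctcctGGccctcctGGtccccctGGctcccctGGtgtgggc
C1qtnf6: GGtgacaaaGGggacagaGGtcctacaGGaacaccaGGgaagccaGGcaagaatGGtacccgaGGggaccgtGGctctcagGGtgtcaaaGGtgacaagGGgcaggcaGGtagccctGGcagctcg
C1qtnf1: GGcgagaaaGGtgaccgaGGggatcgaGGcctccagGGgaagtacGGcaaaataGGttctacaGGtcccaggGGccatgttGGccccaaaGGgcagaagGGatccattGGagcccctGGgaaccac
C1qtnf5: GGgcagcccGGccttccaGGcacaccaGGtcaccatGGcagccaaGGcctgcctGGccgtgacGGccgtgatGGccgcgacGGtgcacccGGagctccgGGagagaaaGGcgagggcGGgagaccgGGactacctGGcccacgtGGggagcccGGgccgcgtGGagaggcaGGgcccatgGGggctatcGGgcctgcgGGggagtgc

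C1qtnf12 had the shortest of these runs, 8 triplets in exon 3 of 8 at chr4:155964771-155964842 on the plus strand. C1qtnf6 had 14 triplets at chr15:78525274-78527228 on the minus strand, across exons 2 and 3 of 3, and C1qtnf1 had 14 at chr11:118446640-118447925 on the plus strand, across exons 3 and 4 of 4. C1qtnf5 had 23 at chr9:44107845-44108374 on the plus strand, across exons 2 and 3 of 3. The longest runs, 34 triplets each, were in C1qtnf2 and C1qtnf7, and C1qtnf4, which encodes a pair of C1q domains in place of a stalk, had a run of only 2. A run of at least 5 triplets was found in 6 of the 7 genes and in 1.82% of 21901 coding genes. These counts describe the family and were not compared with expression.

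Several facts bear on how far the counts can be trusted. Arp4 siRNA left 4.66% of the siControl level of Actl6a in siArp4 and 1.87% in siArp4+CK666. Library totals ran from 18075610 to 24733212 estimated counts. The siControl libraries stood apart from one another, with distances of 34.2 to 62.3 between them against 13.5 to 32.1 between replicates of any other group, and siControl replicates 1 and 2 lay farthest apart. Results that use siControl are therefore also given without replicate 2 where this matters. The library siArp4+CK666 replicate 3 was alone in holding counts of several macrophage genes, with values given further on. Of 12 MSC markers, 10 had a mean count of at least 10, Nt5e was lower and Thy1 was at 0 in every library. Scaled over all libraries, the MSC marker sum was 224700 to 238800 in control, 118800 to 136300 in CK666 and 286900 to 305300 in CytoD. It was 157500 to 240500 in siControl, 247000 to 278800 in siArp4 and 135300 to 154400 in siArp4+CK666. Endothelial markers were low throughout (summed level 3.94 to 26.1 normalized counts over 5 genes). Their sum was 5.01 to 6.55 in siControl, 9.5 to 13.3 in siArp4 and 21.05 to 26.1 in siArp4+CK666. Of 10 blood cell markers, 4 had a mean count of at least 10, with Cd3e at 0. Fewer cells that express a gene and less RNA per cell cannot be told apart in these bulk libraries. The reads do not record strand. C1qtnf12 shared no annotated sequence with another gene, C1qtnf6 and C1qtnf1 overlapped only antisense genes with mean counts of 2.22 and 0.14, and C1qtnf5 is uncertain, because all its exons lie inside the longer Mfrp gene on the same strand and 90.2% of its 31-base words occur there too. Mfrp itself was assigned a mean count of 3.56.

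Levels fell into an expressed and a silent set. Read as normalized counts per kb of transcript, the scale on which genes can be compared, control cells held 448 ± 23.7 (SD, n = 3) of C1qtnf6, 392 ± 27.99 of C1qtnf12, 249 ± 27.4 of C1qtnf1 and 26.8 ± 6.73 of C1qtnf5. C1qtnf6, an inhibitor of the alternative complement pathway, thus made up 40.2% of the family signal, C1qtnf12 35.1% and C1qtnf1 22.3%. C1qtnf7 had no count in any of the 18 libraries, and a 0 is compatible with up to 3 counts per library. C1qtnf2 had 0 counts in 17 libraries and 3 in siControl replicate 2. C1qtnf4 was at 0 in the control and CK666 libraries and had 1 count in 1 CytoD library.

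**Figure D1:**
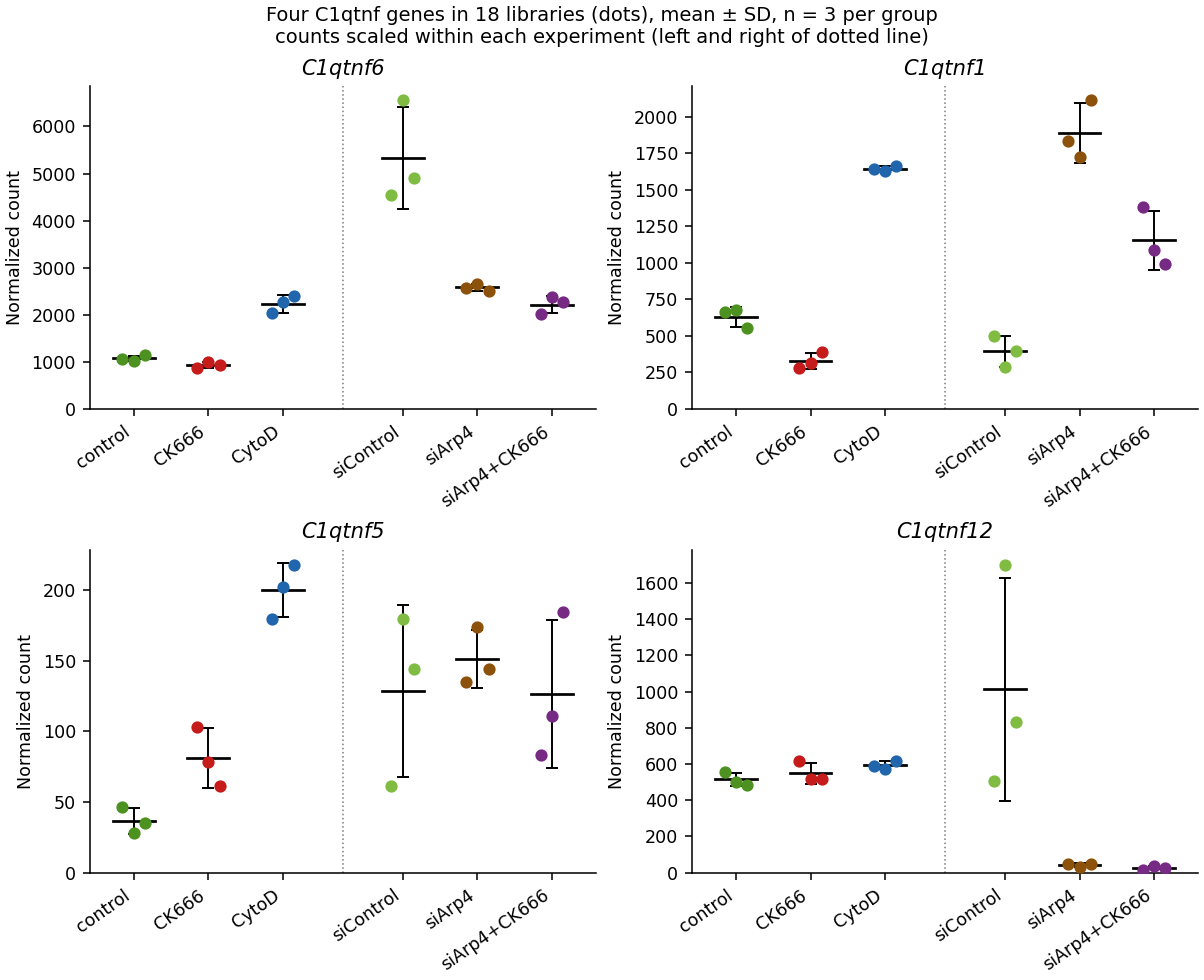
Normalized counts of C1qtnf6, C1qtnf1, C1qtnf5 and C1qtnf12 in every library (dots) with the group mean and SD (bars, n = 3), on linear axes from 0, scaled within each experiment (first experiment left of the dotted line, second right). C1qtnf1 lay above its control group in CytoD (1630 to 1663) and siArp4 (1721 to 2117), while C1qtnf12 was at or below 50.5 in all 6 libraries given Arp4 siRNA.

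The share of each gene in the family changed with treatment. With CytoD the summed level of the family was 2178 normalized counts per kb against 1116 in control, and C1qtnf1 took 29.8% of it and C1qtnf12 20.7%. With CK666 the sum was 993 per kb, C1qtnf12 was the largest share at 42.0%, and C1qtnf1 took 13.1%. In the second experiment siControl cells held 3254 per kb, of which C1qtnf6 took 68.3%, C1qtnf12 23.7% and C1qtnf1 4.78%. In siArp4 cells C1qtnf1 took 37.9% and C1qtnf12 1.62% of 1967 per kb, and in siArp4+CK666 cells the values were 30.5% and 1.35% of 1494 per kb. These shares are descriptions, with no test of the composition.

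**Figure D2:**
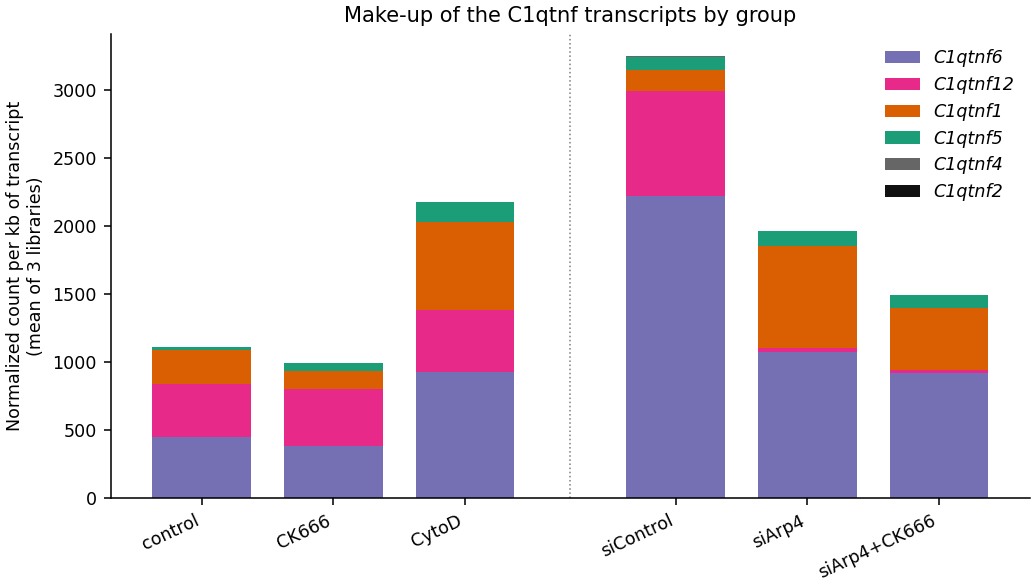
Summed normalized counts per kb of transcript of the C1qtnf genes, as the mean of 3 libraries per group, stacked by gene and scaled within each experiment (dotted line). C1qtnf12 fills 35.1% of the control bar and 1.62% of the siArp4 bar, while C1qtnf1 fills 22.3% and 37.9%. C1qtnf4 and C1qtnf2 are too low to be seen, and C1qtnf7 was at 0.

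The first comparison asked how CK666, which disturbs actin branching, changed these genes. C1qtnf5 rose, C1qtnf1 was at 52.3% of control without passing the fold minimum, and C1qtnf6 and C1qtnf12 did not pass. A gene was called where its log2 fold change was over 1 in size and its DESeq2 adjusted p over all genes tested was below 0.01. By this rule 1 of 4 members with enough counts was called, where 11.0% of all genes tested were.

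C1qtnf1, a secreted regulator of glucose metabolism that also restrains platelet aggregation, had normalized counts of 664.5, 677.8 and 551.6 in control and 283.9, 317.0 and 389.6 in CK666. Every CK666 library lay below every control library. The fitted log2 fold change was -0.93 (SE 0.15, adjusted p by DESeq2 2.06e-09), which passed the p but not the fold minimum. It passed both without CK666 replicate 3 (-1.06) or without control replicate 3 (-1.02).

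C1qtnf5, mutated in a late-onset retinal degeneration, stood at 46.4, 28.2 and 35.2 normalized counts in control and at 103.2, 78.5 and 61.4 in CK666. The groups did not overlap, though both were low. Its fitted log2 fold change was 1.14 (SE 0.29, adjusted p by DESeq2 0.00041). The call was lost without CK666 replicate 1 (0.93), without control replicate 2 (0.99), and in a fit of all 18 libraries, where the adjusted p was 0.0177.

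C1qtnf6 was measured at 1062, 1028 and 1139 in control and 866.5, 992.9 and 924.3 in CK666, groups that did not overlap but lay close. The log2 fold change was -0.21 with a 95% interval of -0.43 to 0.00 (adjusted p by DESeq2 0.117). C1qtnf12, an insulin-sensitizing protein first known from fat tissue as adipolin, had 556.2, 503.4 and 485.4 in control and 615.0, 515.8 and 516.1 in CK666. Its groups overlapped, and the log2 fold change was 0.09 with an interval of -0.16 to 0.34 (DESeq2 adjusted p 0.609).

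CytoD served as the contrast to CK666 among drugs that act on actin. C1qtnf1, C1qtnf5 and C1qtnf6 all rose, by 2.08-fold to 5.45-fold, and C1qtnf12 did not pass. Thus 3 of 4 members tested were called, all 3 higher, where 9.12% of all genes tested were called and 4.80% were called higher.

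C1qtnf1 reached 1643, 1630 and 1663 normalized counts, against 551.6 to 677.8 in control. The CytoD libraries lay close together, far above every control library. The fitted log2 fold change was 1.38 (SE 0.14, adjusted p by DESeq2 4.1e-21).

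C1qtnf5 reached 179.6, 202.3 and 217.4, all above the highest control library at 46.4. Its log2 fold change of 2.45 (SE 0.28, DESeq2 adjusted p 1.17e-16) was the largest of the 4, with the reservation on its reads given above. C1qtnf6 reached 2031, 2263 and 2410 against at most 1139 in control (log2 fold change 1.05, SE 0.11, DESeq2 adjusted p 3e-20). This value lay at the fold minimum, and without CytoD replicate 3 it was 0.99 and not called.

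C1qtnf12 was the exception among the 4 in this comparison. It had 587.7, 575.0 and 616.2 normalized counts with CytoD, all above the 485.4 to 556.2 of control, but the log2 fold change was only 0.20 (95% interval -0.04 to 0.45, DESeq2 adjusted p 0.204).

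CK666 and CytoD were also compared directly, because both were read against the same control libraries. C1qtnf1 stood 4.98-fold lower under CK666 than under CytoD (log2 fold change -2.32, SE 0.14, DESeq2 adjusted p 5.27e-56). C1qtnf5 differed by -1.30 (SE 0.26, DESeq2 adjusted p 4.78e-06) and C1qtnf6 by -1.27 (SE 0.11, DESeq2 adjusted p 5.22e-29). C1qtnf12 differed by -0.11, with an interval of -0.36 to 0.14 (DESeq2 adjusted p 0.52). The 3 of 4 members called compare with 11.8% of all genes tested. For these 3, which were called, no CK666 library reached the lowest CytoD library. How many of all genes separate in this way was not counted. C1qtnf12 overlapped, at 515.8 to 615.0 with CK666 and 575.0 to 616.2 with CytoD.

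**Figure D3:**
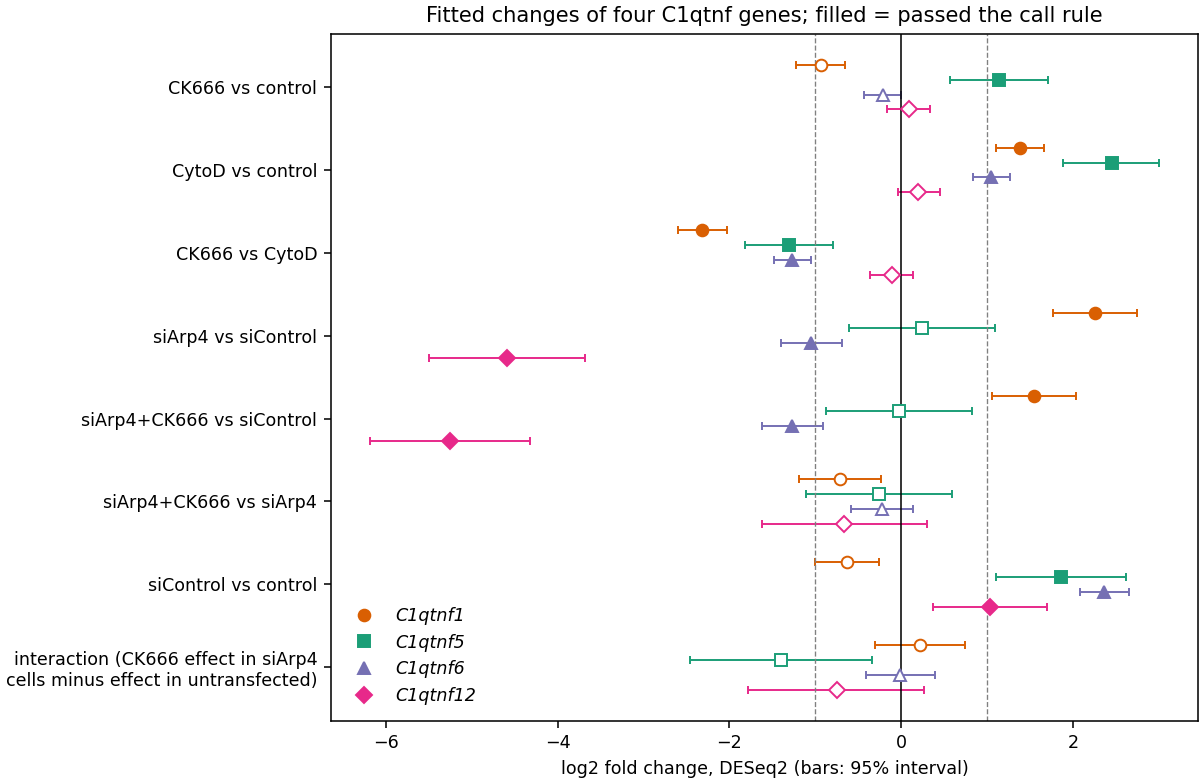
DESeq2 log2 fold changes of C1qtnf1, C1qtnf5, C1qtnf6 and C1qtnf12 (points) with 95% intervals (bars) in the 8 comparisons. Dashed lines mark the fold minimum of 1 in either direction and filled symbols passed the call rule, which for C1qtnf12 in the comparisons with knockdown or siControl is a description. C1qtnf12 lies near 0 in the 3 drug comparisons and at -4.59 and -5.25 in the knockdown comparisons, while C1qtnf1 lies at 1.38 with CytoD and 2.26 with siArp4.

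Arp4 was depleted to ask how far gene expression in MSC needs this nuclear actin-related protein. C1qtnf1 rose 4.79-fold in siArp4 cells, C1qtnf6 fell to 48.4% of siControl, and C1qtnf12 stood at 4.14% of siControl. Of 5 members tested, 3 were called, where 16.2% of all genes tested were. C1qtnf12 is among these 3, and nothing is read from its place in the count.

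C1qtnf12 had 506.3, 1699 and 832.1 normalized counts in siControl and 50.5, 29.2 and 46.1 in siArp4. The siControl libraries were widely spread, and even the lowest of them was far above the highest siArp4 library. The means were 1012 ± 616 and 41.9 ± 11.3 (SD, n = 3), and the log2 fold change was -4.59 (SE 0.46). Without siControl replicate 2, the highest library, it was -4.00, and over all fits that left out 1 library it ran from -4.91 to -4.00.

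C1qtnf1 went the other way. It had 502.1, 285.5 and 394.1 normalized counts in siControl and 1831, 1721 and 2117 in siArp4, and every siArp4 library was above every siControl library. The fitted log2 fold change was 2.26 (SE 0.25, adjusted p by DESeq2 5.94e-18), and 2.07 without siControl replicate 2.

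C1qtnf6 was at 4540, 6571 and 4907 in siControl and at 2577, 2665 and 2508 in siArp4. The groups did not overlap, and siControl replicate 2 was again the highest. The fitted log2 fold change was -1.05 (SE 0.18, adjusted p by DESeq2 1.34e-07). Without siControl replicate 2 it was -0.88 and no longer called.

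C1qtnf5 had 61.2, 179.8 and 143.8 normalized counts in siControl and 134.7, 173.9 and 144.3 in siArp4. Here the siArp4 libraries lay inside the siControl range, and the log2 fold change was 0.24 (interval -0.61 to 1.09, DESeq2 adjusted p 0.717). C1qtnf4, which can act in the brain on food intake, had 0, 37.7 and 0.93 normalized counts in siControl and 4.21, 5.40 and 4.01 in siArp4. Its fitted value was -1.49 (DESeq2 adjusted p 0.501), and siControl replicate 2 held 30 counts of this gene while the other siControl libraries held 0 and 1.

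With CK666 added to the knockdown, C1qtnf1 rose against siControl, C1qtnf6 fell, and C1qtnf12 stood far below it. Both comparisons use the same siControl libraries, so they are set side by side and not counted as agreement. C1qtnf12 had 16.9, 34.3 and 28.5 normalized counts, 2.63% of siControl, a log2 fold change of -5.25 (SE 0.47), or -4.65 without siControl replicate 2. C1qtnf1 had 1382, 1090 and 989.5, all above the highest siControl library, a log2 fold change of 1.55 (SE 0.25, DESeq2 adjusted p 6.55e-09).

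C1qtnf6 had 2013, 2369 and 2275 normalized counts in siArp4+CK666, below the lowest siControl library. The fitted log2 fold change was -1.27 (SE 0.18, adjusted p by DESeq2 6.5e-11), and it was still called without siControl replicate 2 (-1.09). C1qtnf5 overlapped siControl with 83.5, 110.6 and 184.4 (log2 fold change -0.02, interval -0.87 to 0.83, DESeq2 adjusted p 0.98). C1qtnf4, at 0, 2.86 and 2.11, was not called either (-2.93, DESeq2 adjusted p 0.151). Of 5 members tested 3 were called, where 20.4% of all genes tested were. C1qtnf12 is again among the 3, and nothing is read from its place in the count.

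The direct comparison of siArp4+CK666 with siArp4 asked what CK666 added in cells short of Arp4. DESeq2 called 0 of 5 members, edgeR called 0 of 4, and 1 member had an unadjusted p under 0.05. Over all genes tested 5.75% were called. C1qtnf1 was that member, with every siArp4+CK666 library (989.5 to 1382) below every siArp4 library (1721 to 2117), a log2 fold change of -0.71 (SE 0.25, DESeq2 adjusted p 0.0308). C1qtnf12 overlapped between the groups, with a log2 fold change of -0.66 (SE 0.49), given as a description. C1qtnf6 differed by -0.22 (interval -0.58 to 0.14, DESeq2 adjusted p 0.539) and C1qtnf5 by -0.26 (interval -1.11 to 0.59, DESeq2 adjusted p 0.817), and C1qtnf4 by -1.44 (interval -4.74 to 1.85, DESeq2 adjusted p 0.699).

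Whether CK666 acted differently in knockdown and in untransfected cells was tested as an interaction over all 18 libraries. It called 0 of 4 members by DESeq2 and 0 of 4 by edgeR, with 1 at an unadjusted p under 0.05, where 4.42% of all genes tested were called. That member was C1qtnf5, at -1.40 (SE 0.54, DESeq2 adjusted p 0.0657), whose CK666 effect was 1.14 in untransfected and -0.26 in knockdown cells. Without siArp4+CK666 replicate 3, the highest library of its group and one that stood apart in blood cell markers (described below), the value was -1.80 and passed the rule (DESeq2 adjusted p 0.00908). C1qtnf1 gave 0.22 (interval -0.30 to 0.74, DESeq2 adjusted p 0.681) and C1qtnf6 -0.01 (interval -0.41 to 0.39, DESeq2 adjusted p 0.987). C1qtnf12 was at -0.75 (SE 0.52), again as a description. Transfection differs between the arms of this contrast and cannot be told apart from the knockdown.

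The control groups of the experiments differed as well, and transfection and experiment cannot be told apart there. C1qtnf6 was higher in siControl than in control by a log2 fold change of 2.36 (SE 0.14, DESeq2 adjusted p 1.38e-58), or 5.15-fold, and C1qtnf5 by 1.86 (SE 0.39, DESeq2 adjusted p 8.81e-06). C1qtnf1 was at -0.63 (SE 0.19, DESeq2 adjusted p 0.00262), under the fold minimum. C1qtnf12, in which the same siControl libraries enter as in its choice, is given without a test, at 1.03 (SE 0.34), and 0.42 without siControl replicate 2. Its call was also lost without control replicate 1 (1.09), 2 (1.02) or 3 (0.99). Of 4 members tested DESeq2 called 3, all higher, with C1qtnf12 among them, and edgeR called 2. Of all genes tested 24.1% were called and 14.1% were called higher.

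The closest relative of these genes with signal was Adipoq, which encodes adiponectin and carries the same stalk and C1q domain. C1qtnf12 and Adipoq were both low in siArp4, yet their values with CK666 differed. Adipoq had 147.5, 132.0 and 230.7 normalized counts in the siControl libraries. Knockdown libraries held 16.0, 4.32 and 9.02 without CK666, and 165.0, 108.7 and 134.9 with it. It thus stood at 5.75% of siControl after knockdown and at 80.1% when CK666 was added. The rise from siArp4 to siArp4+CK666 was a log2 fold change of 3.76 (SE 0.45, DESeq2 adjusted p 4.06e-15), set beside -0.66 (SE 0.49) for C1qtnf12 in the same libraries. The difference between the genes was not tested.

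In the first experiment Adipoq rose with both drugs, from 38.0 to 89.0 normalized counts in control to 153.4 to 309.5 with CK666 (log2 fold change 1.91, DESeq2 adjusted p 8.56e-09) and 524.7 to 657.4 with CytoD (3.27, DESeq2 adjusted p 1.52e-24). C1qtnf12 stayed between 485.4 and 616.2 over these 9 libraries. C1qtnf1, C1qtnf5 and C1qtnf6 were called higher with CytoD as Adipoq was. With CK666 C1qtnf5 was called higher as Adipoq was, C1qtnf6 was not called, and C1qtnf1 was below control in all 3 libraries.

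**Figure D4:**
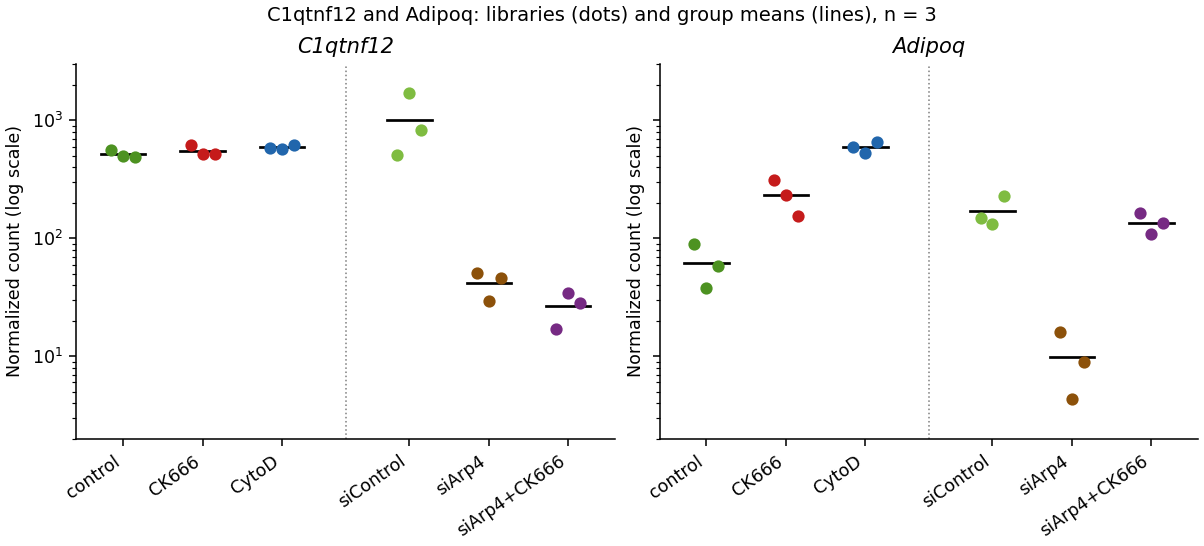
Normalized counts of C1qtnf12 and Adipoq in the 18 libraries (dots) with group means (lines, n = 3), on a shared logarithmic axis and scaled within each experiment (dotted line). In siArp4 both are low (29.2 to 50.5 for C1qtnf12, 4.32 to 16.0 for Adipoq), and in siArp4+CK666 Adipoq is at 108.7 to 165.0 while C1qtnf12 is at 16.9 to 34.3.

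Of 8 fat cell markers, Adipoq included, 5 had a mean count of at least 10, and Lep was at 0. In siArp4 against siControl DESeq2 called 2 of 5 tested, both lower, and edgeR 1 of 4 (all genes 16.2%). In siArp4+CK666 against siControl DESeq2 called 0 of 5 and edgeR 0 of 4 (all genes 20.4%), with 1 at an unadjusted p under 0.05. In siArp4+CK666 against siArp4 DESeq2 called 3 of 4, all higher, and edgeR 2 of 4 (all genes 5.75%). With CK666 DESeq2 called 3 of 5, all higher, and edgeR 2 of 5 (all genes 11.0%). With CytoD DESeq2 called 4 of 5, all higher, and edgeR 3 of 5 (all genes 9.12%). On a scale common to all libraries their summed level, most of which was Fabp4, was 2200 to 3118 in siControl, 1256 to 1394 in siArp4 and 3579 to 4385 in siArp4+CK666, and it was 927 to 938 in control, 1716 to 2536 in CK666 and 2361 to 2732 in CytoD. The keratin gene Krt19 was the 1 epithelial marker of 5 with a mean count of at least 10 (Epcam and Krt14 were at 0). It had 671.5, 2324 and 1249 normalized counts in siControl, 206.4 to 288.3 in siArp4 and 14.8 to 48.5 in siArp4+CK666. The epithelial sum ran from 669 to 2389 in siControl, 212 to 296 in siArp4 and 14.7 to 52.0 in siArp4+CK666. In the first experiment Krt19 fell with CK666 (log2 fold change -1.98, DESeq2 adjusted p 4.87e-23) and was at 0.17 with CytoD, and the epithelial sum was 323 to 374 in control, 70.9 to 112 in CK666 and 360 to 436 in CytoD.

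Blood cell markers summed to 152 to 388 in siControl, 176 to 190 in siArp4 and 146 to 394 in siArp4+CK666. In the first experiment the sum was 218 to 281 in control, 168 to 239 in CK666 and 343 to 377 in CytoD, with Cd68 (1.42) and Lyz2 (1.08) called higher with CytoD and Cd14 (-1.24) lower with CK666. The library siArp4+CK666 replicate 3 stood apart. It held 188.6 normalized counts of the macrophage gene Lyz2 against 19.0 and 19.1 in its replicates, and it was the only library with any count of Adgre1 (12.7 normalized), Tyrobp (6.32), Ptprc (1.05) or the complement genes C1qa (5.27), C1qb (4.22) and C1qc (7.38). Without it the calls of the members were as before in both comparisons of siArp4+CK666, and the interaction of C1qtnf5 changed as given above. Osteoblast markers, 1 of 4 with a mean count of at least 10, were low. Their sum was 9.38 to 21.8 in control, 20.6 to 43.3 in CK666 and 55.3 to 63.3 in CytoD. It was 10.3 to 18.7 in siControl, 0 to 7.78 in siArp4 and 2.9 to 9.47 in siArp4+CK666. Of 10 MSC markers tested, DESeq2 called 2 lower with CK666 (all genes 11.0%) and 1 higher with CytoD (9.12%). Between the drugs 6 were lower in CK666 (11.8%). Against siControl 2 were higher and 1 lower in siArp4 (16.2%), and 3 were lower in siArp4+CK666 (20.4%). The part of any marker list in the members' values was not tested.

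The other genes that encode a C1q domain were taken as a list of 24, of which 6 to 8 had enough counts. CK666 changed 2 of 8 (all genes 11.0%), with Adipoq higher and Col8a1, a short-chain collagen, lower (-1.29). CytoD changed 1 of 7 (all genes 9.12%), Adipoq. With so few genes such counts are close to the background and say nothing of the list. Between the drugs 4 of 8 (all genes 11.8%) were lower in CK666 than in CytoD, namely Emilin1 (-1.56), Adipoq (-1.36), Emilin2 (-1.22) and Col10a1 (-1.02), and the median over the 8 was -1.06 against -0.03 for all genes tested. The Emilin genes encode glycoproteins of elastic fibres. Col10a1 lost its call under most alternatives, including all 3 fits that left out a CytoD library.

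In the second experiment DESeq2 called 3 of 8 of these relatives and edgeR 2 of 6 in siArp4 against siControl (all genes 16.2%), Adipoq lower (-4.09, DESeq2 adjusted p 2.62e-18) and Col10a1 (1.21) and Caprin2 (1.01) higher. The Caprin2 call was lost by edgeR and without siControl replicate 1 or 3 or siArp4 replicate 1 or 2. In siArp4+CK666 against siControl 1 of 8 was called (all genes 20.4%), Emilin2 at -1.08, and it was lost without siControl replicate 3 (-0.98). Against siArp4 alone 2 of 7 were called (all genes 5.75%), Adipoq higher and Col8a1 lower (-1.80). Between the control groups 2 of 7 (all genes 24.1%) were higher in siControl, Emilin1 (1.68) and Adipoq (1.52). The interaction called 0 of 6 by DESeq2 and 0 of 7 by edgeR, with 1 at an unadjusted p under 0.05 (all genes 4.42%).

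Receptors and binding partners of the family were read as well. The list held Adipor1, Adipor2, Cdh13, Mfrp, Itga1 and Itgb1, of which 5 or 6 were tested. Itga1, a collagen-binding integrin chain, rose with CytoD by 1.44 (DESeq2 adjusted p 0.000537), from 17.5 to 34.2 normalized counts in control to 64.9 to 85.0, and lost the call without CytoD replicate 1 or control replicate 2. In each of the other 7 comparisons DESeq2 called 0 and edgeR called 0, with 1 to 5 of the genes at an unadjusted p under 0.05. As 4.42% to 24.1% of all genes were called in these comparisons, 0 calls among 5 or 6 genes are no result about the list.

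Genes that fold, hydroxylate and export collagen-like proteins were taken as a list of 14. CK666 raised 1 of them (11.0% of all genes tested were called), Ero1l, the oxidase that makes disulfide bonds in the endoplasmic reticulum, from 2191 to 2214 normalized counts in control to 9931 to 12180 (log2 fold change 2.36, DESeq2 adjusted p 1.86e-103). DESeq2 and edgeR called 0 of 14 with CytoD, where 10 had an unadjusted p under 0.05. Between the drugs 1 of 14 was called (all genes 11.8%), Ero1l, higher in CK666 by 2.77. The list medians were -0.24 with CK666 and -0.40 with CytoD, against 0.01 over all genes tested in each.

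After Arp4 knockdown 3 of these 14 were called, a share not far from the 16.2% of all genes. Ero1l rose by 1.44 and the lysyl hydroxylase Plod2 by 1.4, while its relative Plod3 fell by 1.11 on the log2 scale. The Plod3 value was -1.0 without siControl replicate 2 and then not called. With CK666 added 3 were again called against siControl (all genes 20.4%), Ero1l at 2.13, Plod3 at -1.35 and the prolyl hydroxylase P4ha2 at -1.32. P4ha2 was the 1 gene of 14 called against siArp4 alone (-1.43, all genes 5.75%). Between the control groups 3 were called (all genes 24.1%). P4ha2 (1.21) and Gstk1 (1.31) were higher in siControl and P4ha3 (-1.12) was lower, of which Gstk1 was lost by edgeR, and both Gstk1 and P4ha3 were lost without siControl replicate 2.

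Klf15, Klf3 and Pparg, transcription factors of fat cells, were read because Klf15 and Klf3 are known to act on C1qtnf12 expression there. Klf15 rose with CK666, from 0.97 to 9.67 normalized counts in control to 55.8 to 75.7 (log2 fold change 3.80, DESeq2 adjusted p 5.18e-10), and was higher in CK666 than in CytoD by 2.81, while C1qtnf12 gave 0.09 in the same CK666 libraries. Pparg, the main regulator of fat cell formation, had 1909 ± 301 normalized counts in siControl and 1223 ± 82.3 in siArp4. Its log2 fold change of -0.64 (DESeq2 adjusted p 0.000563) was under the fold minimum. Klf3 had 1649 ± 694 normalized counts in siControl and 2038 ± 188 in siArp4 (log2 fold change 0.30, DESeq2 adjusted p 0.48). In the 6 comparisons other than CK666 against control and against CytoD, DESeq2 and edgeR called 0 of the genes tested. In each, 1 had an unadjusted p under 0.05. Within the second experiment only 2 of the 3 were tested, and Klf15, at 0 to 5.29 normalized counts, was not. As 4.42% to 24.1% of all genes were called in these comparisons, 0 calls among 2 or 3 genes are no result about the list.

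Over all 18 libraries, the genes whose profile was most like that of C1qtnf12 were Emc3, a subunit of a membrane protein insertion complex of the endoplasmic reticulum (Pearson r 0.989 on log2 normalized counts), and Atp5f1 (0.988) and Atp5c1 (0.987), both subunits of mitochondrial ATP synthase, among 9926 genes with a mean count of at least 100. The most opposite profile was that of Kremen1, a receptor for Dickkopf proteins (-0.979). These values describe 18 libraries in which the 6 given Arp4 siRNA form a low cluster of their own, and within the first experiment alone they were 0.968, 0.687, 0.777 and -0.145.

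Emc3 had a mean of 3146 ± 356 normalized counts in siControl, 958 ± 40.95 in siArp4 and 820 ± 82.3 in siArp4+CK666, so its range was narrower than that of C1qtnf12. Kremen1 was at 485 ± 103 in siControl, 1374 ± 83.9 in siArp4 and 1662 ± 282 in siArp4+CK666. Among the members, C1qtnf1 ran against C1qtnf12 (r -0.631 over 18 libraries, rank 8363 of 9926 from the most alike). C1qtnf5 (-0.202) and C1qtnf6 (-0.074) had no marked relation over the whole set. Within the first experiment alone C1qtnf1 had 0.475, C1qtnf5 0.824 and C1qtnf6 0.568.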

How the data were processed

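RNA-seq was performed by the authors on 18 libraries in 6 groups. Per the labels and methods, paired unstranded reads were quantified with Salmon 1.2.1 against GENCODE vM25 (GRCm38), and the deposited values are expected counts per gene, unscaled. The summing of transcripts to genes is not given in the sources used here. Totals are given in the report. Counts were rounded, shifting totals by 277 at most. Names, coordinates and sequences came from GENCODE vM21, which matched all but 253 gene identifiers.

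All 54347 genes were fitted with DESeq2 1.42.0 in R 4.3.3 (two-sided Wald test, no shrinkage, independent filtering at 0.01, Benjamini-Hochberg adjustment over all genes tested), with 9 libraries per experiment and the group as the only term, or all 18 libraries for the interaction and for siControl against control. Levels are counts divided by the size factors of their own experiment. Distances are Euclidean over variance-stabilized values of the most variable genes. Likeness used log2(normalized count + 1). Alternatives were edgeR 4.0.16 (quasi-likelihood), TMM scaling, a filter of 10 counts in 3 libraries, other fold rules, other sets of libraries, a replicate block and leaving out single libraries. The procedure was tested on simulated data. The 7 members and all gene lists were chosen with earlier results of these data known. Named genes are the members, called genes of each list (at most 4 per comparison), regulators of C1qtnf12 and its 3 most similar and 1 most opposite profile; Krt19 and the blood cell markers were named after their values were seen.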

Additional observations from a re-analysis of the deposited data

Results flagged for a closer look

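Ero1l, on the list of genes for folding and export of collagen-like proteins, responded to CK666 less in knockdown cells than in untransfected cells. The interaction was -1.67 on the log2 scale (SE 0.26, DESeq2 adjusted p 1.08e-08), with CK666 effects of 2.36 in untransfected and 0.69 in siArp4 cells. Ero1l was already higher in siArp4 than in siControl (6627 to 7517 against 1729 to 3377 normalized counts) before CK666 was added, and every siArp4+CK666 library (9650 to 12920) lay above the siArp4 libraries. Transfection differs between these arms and cannot be told apart from the knockdown.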

How the results depend on the processing

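Of 467 refits of single members, 427 kept the direction and side of the threshold, 22 lost a call, 5 gained one and 13 turned sign, and none of the values that turned sign was called. A test against a fold change of 2 left fewer called members, 0 for CK666, 1 for CytoD, 1 for CK666 against CytoD, 1 for siArp4+CK666 against siControl and 1 for siControl against control. With no fold minimum 2 were called for CK666, and with all 18 libraries in 1 fit 0. Leaving out single libraries gave 0 to 2 called members for CK666 and 0 to 1 for the interaction. Values that turned sign were near 0 or at low counts. C1qtnf5 ran from -0.10 to 0.55 in siArp4 and from -0.39 to 0.30 in siArp4+CK666 against siControl when single libraries were left out, and C1qtnf6 from -0.06 to 0.06 in the interaction (0.00 with its 4 groups alone).

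Replicate numbers did not pair the libraries: same-numbered libraries correlated at -0.37 to 0.14 in the first and -0.53 to 0.66 in the second experiment. With a replicate block C1qtnf4 was at 0.75 in siArp4 and C1qtnf5 at 0.03 in siArp4+CK666 against siControl, and the call for C1qtnf12 in siControl against control (0.98) was lost, while called members were otherwise as many as without it.

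Counts over all genes moved with the fold rule. With no minimum they were 4381 in place of 1599 for CK666, 4067 in place of 1251 for CytoD, 4779 in place of 1778 between the drugs, 3867 in place of 2494 for siArp4, 1395 in place of 811 for siArp4+CK666 against siArp4, 6103 in place of 3498 between controls and 1056 in place of 597 for the interaction. A test against a fold change of 2 gave 349, 147, 438, 431, 145, 631 and 58 in that order, and 792 in place of 3150 for siArp4+CK666 against siControl. edgeR gave 466 for siArp4+CK666 against siArp4 and 384 for the interaction. Likeness to C1qtnf12 in the first experiment alone was 0.687 for Atp5f1, 0.777 for Atp5c1 and -0.145 for Kremen1, and Spearman's rho for Kremen1 was -0.777. Depth limits C1qtnf2, C1qtnf4 and C1qtnf7, whose changes cannot be read.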

Other observations

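Within the second experiment alone, C1qtnf6 had a Pearson r of 0.988 with C1qtnf12 over 9 libraries (rank 16 of 9926). C1qtnf1 had -0.898 (rank 9020) and C1qtnf5 -0.006. Over the 9 libraries of the first experiment C1qtnf6 had 0.568, C1qtnf1 0.475 and C1qtnf5 0.824. The libraries of the second experiment share the knockdown as their main difference, so the values are descriptions and no p is given. SiControl replicate 2 held the highest level of C1qtnf12, C1qtnf6, C1qtnf5 and C1qtnf4 and the lowest of C1qtnf1 in its group. Krt19 was highest there too, at 2324 normalized counts against 671.5 and 1249 in the other siControl libraries. So were Emilin1 and P4hb, which belong to other lists.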
